A study of Mus musculus with 34 samples.

Results

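The 5'-AMP-activated protein kinase (AMPK) subunits were followed here in muscle and liver of mice that lack or overexpress muscle glycogen synthase, the enzyme that builds glycogen. The members were fixed by name as the 7 genes Prkaa1, Prkaa2, Prkab1, Prkab2, Prkag1, Prkag2 and Prkag3, of 12393 genes named by 1 symbol in the probe annotation. That annotation held 7 probe sets for 3 of them, which were 2 for Prkab1, 2 for Prkag1 and 3 for Prkag2. Prkaa1, Prkaa2, Prkab2 and Prkag3 had no matching probe set and were not analysed here, so the account below covers 1 scaffold and 2 regulatory subunits and no catalytic subunit.

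AMPK is a heterotrimer that senses the energy state of the cell. The alpha subunits (Prkaa1 and Prkaa2) carry the kinase, the beta subunits (Prkab1 and Prkab2) hold the complex together and bind glycogen through a carbohydrate-binding module, and the gamma subunits (Prkag1, Prkag2 and Prkag3) bind AMP, ADP and ATP. Active AMPK phosphorylates and restrains glycogen synthase and promotes glucose uptake and fatty acid oxidation. Complexes with Prkaa2, Prkab2 and Prkag3 are known as the type enriched in skeletal muscle, and inherited changes in the human counterpart of Prkag2 cause a glycogen storage disease of the heart.

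The series held 34 Affymetrix arrays in 8 groups of mice. At 3 months of age, muscle glycogen synthase knockout mice (MGSKO in the labels) and wild-type (WT) mice gave tibialis anterior (4 and 4 arrays), medial gastrocnemius (3 and 5) and liver (4 and 4). At 8 months, GSL30 mice, whose samples the labels place in a set of wild-type or overexpressing animals, and their own wild-type mice gave medial gastrocnemius (5 and 5). The labels name the strain as C57BL6/129SV for the tibialis arrays only, and they do not give the promoter of the GSL30 transgene, whether it is 1 line of 1 founder, or whether each array came from its own animal. P-values therefore measure the spread between these samples, which may be technical.

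Values are array intensities on a linear scale, and group levels are given as mean ± SD. A difference is a log2 difference on the log2(value + 50) scale with its standard error (SE) or 95% interval from limma, and adjusted p is Benjamini-Hochberg over the 13576 probe sets that lay above the 40th percentile of mean level in a comparison. A probe set was called at an adjusted p under 0.05. These are bulk samples, in which fewer cells of a type and less RNA per cell cannot be told apart.

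The labels were checked on Gys1, the gene that was knocked out or overexpressed. Its brighter probe set read 8184 to 9958 in wild-type and 34.2 to 72.5 in knockout tibialis, 3955 to 6378 and 58.1 to 165 in gastrocnemius at 3 months, and 5840 to 7185 in wild-type and 7896 to 10404 in GSL30 gastrocnemius. The sources used here do not say whether it lies in the deleted part of the gene. The sum over 12 skeletal muscle markers was 424912 to 1819686 in the muscle arrays and 1276 to 3731 in the liver arrays, and the highest sum came from replicate 2 of the wild-type gastrocnemius at 3 months, an array that stood apart. Liver transcripts were present in gastrocnemius. Over 431 probe sets (mean above 2000 in wild-type liver, tibialis lower by 20-fold or more), the median level as a percent of wild-type liver (the liver percent) was 17.7, 25.5, 5.66, 26.7 and 2.94 in the wild-type gastrocnemius arrays at 3 months and 8.28, 3.79 and 2.74 in the knockout arrays. It was 0.735 to 1.27 in tibialis and 0.995 to 2.56 in gastrocnemius at 8 months. Results on 3-month gastrocnemius are also given below without the arrays of high liver percent or without replicate 2 where that made or ended a call or turned a sign.

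By their brightest probe sets, Prkag1 and Prkab1 were read well above the dim end of the arrays, and Prkag2 was not. The probe set 1417690_at of Prkag1 had a mean level at percentile 93 of all probe sets and ran from 2045 to 5272 over the 34 arrays. The probe set 1424119_at of Prkab1 lay at percentile 71.1 and ran from 562 to 1239. The best Prkag2 probe set, 1451140_s_at, lay at percentile 47.2 and ran from 75.7 to 820, a wide range within single groups. A second Prkag1 probe set, 1433533_x_at, lay at percentile 49 and ran from 232 to 497. An x in the name marks probes that can also pair with other transcripts. The remaining 3, 1452457_a_at of Prkab1 and 1423831_at and 1423832_at of Prkag2, lay at percentiles 27.3, 32.5 and 23.2. These 3 fell below the dim filter, apart from 1423831_at in the liver comparison, so 4 of 7 members were tested in every comparison and 5 in knockout against wild-type liver. Intensities of different probe sets are not compared with each other as amounts of RNA.

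**Figure D1:**
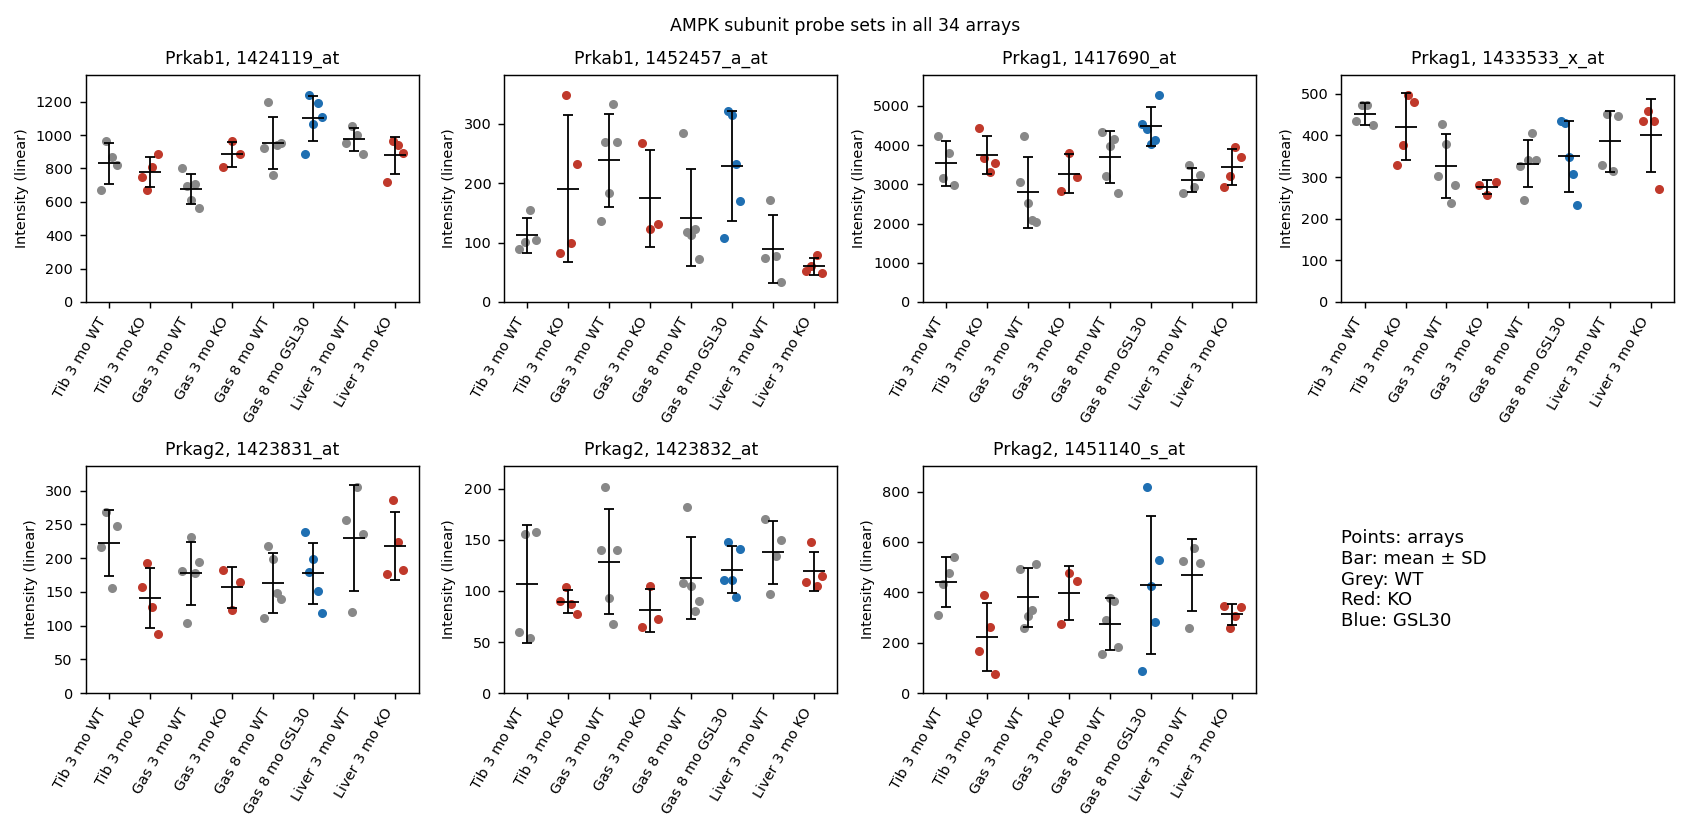
Intensity (linear scale) of the 7 AMPK subunit probe sets in each of the 34 arrays, with 1 point per array and the mean ± SD of each group (Tib, tibialis; Gas, gastrocnemius; mo, months; grey wild type, red knockout, blue GSL30). The Prkag1 probe set 1417690_at stays between 2045 and 5272 in muscle and liver alike.

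In order of mean level, neighbouring groups had overlapping ranges in all 49 neighbouring pairs of the 7 probe sets. Sorting places groups of like level side by side, so this does not show that the groups were alike. Groups further apart in the order could separate, as wild-type gastrocnemius at 3 months and wild-type liver did for Prkab1 by 1424119_at. For Prkag1 by 1417690_at the order ran from GSL30 gastrocnemius (4475 ± 491, n = 5) through knockout tibialis (3743 ± 487, n = 4), wild-type gastrocnemius at 8 months (3694 ± 662, n = 5), wild-type tibialis (3539 ± 574, n = 4), knockout liver (3444 ± 454, n = 4), knockout gastrocnemius (3272 ± 490, n = 3) and wild-type liver (3111 ± 313, n = 4) to wild-type gastrocnemius at 3 months (2793 ± 908, n = 5). Liver thus sat among the muscle groups. For Prkab1 by 1424119_at the order began with GSL30 gastrocnemius (1100 ± 135), wild-type liver (974 ± 71.3) and wild-type gastrocnemius at 8 months (954 ± 157). It went on with knockout gastrocnemius (885 ± 76.1), knockout liver (879 ± 110), wild-type tibialis (832 ± 124) and knockout tibialis (778 ± 90.3), and ended with wild-type gastrocnemius at 3 months (677 ± 92.6). These 2 probe sets thus had their highest mean in GSL30 gastrocnemius and their lowest in 3-month wild-type gastrocnemius, and the dimmer probe sets of the same genes had other orders. Prkab1 by 1452457_a_at was highest in 3-month wild-type gastrocnemius (238 ± 78.2), and Prkag1 by 1433533_x_at was highest in wild-type tibialis (451 ± 25.4) and lowest in knockout gastrocnemius (275 ± 17.1). The 8-month and 3-month gastrocnemius groups carry different set numbers in their titles, so that age and set cannot be told apart, and they were not tested against each other.

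Loss of muscle glycogen synthase or its overexpression was not accompanied by a call for Prkab1, Prkag1 or Prkag2. The catalytic subunits, Prkab2 and Prkag3 had no probe set, so nothing is known of them here. Over the 4 comparisons of a mutant group with its own wild type, 0 of 17 member tests passed in limma, with adjusted p of 0.229 or more. The background share of called probe sets was 1.4% in tibialis, 0.147% in 3-month gastrocnemius, 0.00737% in liver and 4.31% in 8-month gastrocnemius. With so few called probe sets in all, a count of 0 among 4 or 5 tested members is not set apart from that background. At unadjusted p under 0.05 there was 1 member in tibialis, 1 in 3-month gastrocnemius, 0 in liver and 0 in GSL30 gastrocnemius, where 15%, 11.4%, 8.33% and 21.4% of all tested probe sets lay under that limit.

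The scaffold subunit Prkab1 read higher in knockout gastrocnemius without passing the test. The probe set 1424119_at read 801, 698, 612, 710 and 562 in wild-type gastrocnemius at 3 months and 810, 962 and 884 in knockout. All 3 knockout arrays lay above all 5 wild-type arrays, by 810 against 801 at the closest. The difference was 0.37 (SE 0.14, 95% interval 0.04 to 0.70, 1.29-fold) with an adjusted p of 0.398 in limma (n = 3 and 5). Groups did not overlap in 9.98% of all tested probe sets of this comparison. Leaving out each array gave 0.31 to 0.43, and adjusted p stayed at 0.374 or more. The 3 arrays of highest liver percent were all wild type. In the same comparison 0 of 12 hepatocyte markers lay above 0 (median -1.30) and 7 of 7 slow fibre markers did (1 called). Without those arrays the difference was 0.55 (adjusted p = 0.54, 2 wild-type arrays left), and with the liver percent as covariate it was 0.48 (adjusted p = 0.412). The dimmer Prkab1 probe set 1452457_a_at went the other way, with wild-type values of 136, 268, 184, 334 and 270 against 268, 123 and 132 (-0.37, 95% interval -1.03 to 0.28, below the dim filter).

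In tibialis, the wild-type values of Prkab1 by 1424119_at were 669, 966, 868 and 823 and the knockout values were 747, 672, 806 and 885. The groups overlapped, with a difference of -0.09 (95% interval -0.39 to 0.22, adjusted p = 0.799 in limma). Liver gave 954, 1055, 1000 and 887 without and 720, 963, 943 and 891 with the knockout, again with overlap (-0.15, 95% interval -0.42 to 0.13, adjusted p = 0.785). In GSL30 gastrocnemius it read 888, 1239, 1069, 1190 and 1111 against 920, 1199, 761, 941 and 951 in wild type. All but 1 of the GSL30 arrays lay above all but 1 of the wild-type arrays, and the difference was 0.20 (95% interval -0.10 to 0.50, adjusted p = 0.419). These intervals leave room for changes of up to 1.41-fold in GSL30 and 1.62-fold in knockout gastrocnemius. The knockout effect on Prkab1 in gastrocnemius minus that in tibialis was 0.46 (SE 0.19, adjusted p = 0.47), so a difference between the muscles was not shown.

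The nucleotide-binding subunit Prkag1 showed no called change. By 1417690_at wild-type tibialis gave 4224, 3155, 3793 and 2985 and knockout tibialis 4439, 3677, 3318 and 3538, groups that overlapped (0.08, 95% interval -0.24 to 0.41, adjusted p = 0.815 in limma). The 3-month gastrocnemius arrays gave 3065, 4242, 2514, 2098 and 2045 for wild type against 2826, 3796 and 3195 for knockout. Replicate 2 of the wild type, the array that stood apart, was the highest of all 8, and the difference was 0.27 (95% interval -0.28 to 0.82, adjusted p = 0.66). Without that array it was 0.43 (adjusted p = 0.402), without knockout replicate 2 it was 0.16 and without wild-type replicate 5 it was 0.17. Without the arrays of high liver percent it was 0.51 (adjusted p = 0.641). Liver gave 2787, 3486, 2933 and 3240 for wild type against 2936, 3212, 3941 and 3686 for knockout (0.14, 95% interval -0.15 to 0.43, adjusted p = 0.809). In GSL30 gastrocnemius it read 4527, 4423, 4018, 4137 and 5272 against 4344, 3222, 3977, 4143 and 2784 in wild type. Here 3 of 5 GSL30 arrays lay above all wild-type arrays (0.29, 95% interval -0.02 to 0.60, 1.22-fold, adjusted p = 0.27). The second Prkag1 probe set, 1433533_x_at, differed by -0.11, -0.18, 0.04 and 0.05 in these 4 comparisons (adjusted p of 0.683 to 0.965), so the 2 probe sets had the same sign in liver and GSL30 and opposite signs in knockout muscle.

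Prkag2, the other nucleotide-binding subunit measured, had the largest difference among the tested members, in knockout tibialis. The probe set 1451140_s_at read 308, 434, 476 and 542 in wild-type tibialis, while the knockout arrays gave 166, 388, 263 and 75.7. Knockout replicate 2, at 388, lay above wild-type replicate 1, so the groups overlapped. The difference was -0.97 (SE 0.34, 95% interval -1.73 to -0.20, 0.51-fold) with an adjusted p of 0.229 in limma (n = 4 and 4). Leaving out knockout replicate 4 moved it to -0.64 (adjusted p = 0.296), which changes the size by over 1.5 times. The dim Prkag2 probe set 1423831_at stood at -0.52 (95% interval -0.99 to -0.05) and 1423832_at at -0.09, both below the filter. All 3 probe sets of the gene thus had a negative sign in tibialis, as they had in knockout liver (-0.47 to -0.03). By 1423831_at the wild-type values were 216, 269, 156 and 247 and the knockout values 157, 192, 128 and 87.3, which overlapped. Slow fibre markers summed to 11306 to 16604 in wild-type and 32076 to 40200 in knockout tibialis (1 of 7 called higher). Over the 7 markers the median difference was -0.15 with 3 of 7 above 0, and the sum was carried by Myl3, at 8536 ± 2983 in wild type and 32995 ± 2671 in knockout by 1 probe set. Their part in the result was not tested.

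For 1451140_s_at the 3-month gastrocnemius arrays gave 494, 259, 306, 329 and 513 for wild type against 275, 475 and 445 for knockout, with full overlap (0.07, 95% interval -0.49 to 0.63, adjusted p = 0.924 in limma). It was -0.03 without the arrays of high liver percent and -0.04 without wild-type replicate 2. Wild-type liver gave 524, 257, 575 and 516 and knockout liver 345, 258, 305 and 343. Wild-type replicate 2, at 257, lay just below the knockout range and the other 3 lay above it (-0.47, 95% interval -0.95 to 0.01, adjusted p = 0.601). In GSL30 gastrocnemius it read 89.2, 820, 424, 284 and 527 against 154, 291, 378, 367 and 183 in wild type, a spread within GSL30 that covered the wild-type range (0.39, 95% interval -0.50 to 1.27, adjusted p = 0.614). Without GSL30 replicate 1, at 89.2, it was 0.77, without GSL30 replicate 2, at 820, it was 0.11, and without wild-type replicate 1 it was 0.23. The dim probe sets 1423831_at and 1423832_at differed from wild type by -0.12 and -0.41 in knockout gastrocnemius and by -0.03 and -0.14 in knockout liver. In GSL30 each stood at 0.09, and all these groups overlapped. The knockout effect on 1451140_s_at in gastrocnemius minus that in tibialis was 1.04 (SE 0.46, adjusted p = 0.477). Over the 3 differences of effects (gastrocnemius minus tibialis, liver minus the mean of both muscles, GSL30 minus knockout), 0 of 12 member tests passed in limma, with adjusted p of 0.47 or more. The first had 2 members at unadjusted p under 0.05 (10% of all) and the other 2 had 0 (10.4% and 17.7%), while 0.0147%, 0.685% and 2.3% of all tested probe sets were called. In GSL30 minus knockout the line goes with age and with the set number in the titles, which cannot be told apart.

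**Figure D2:**
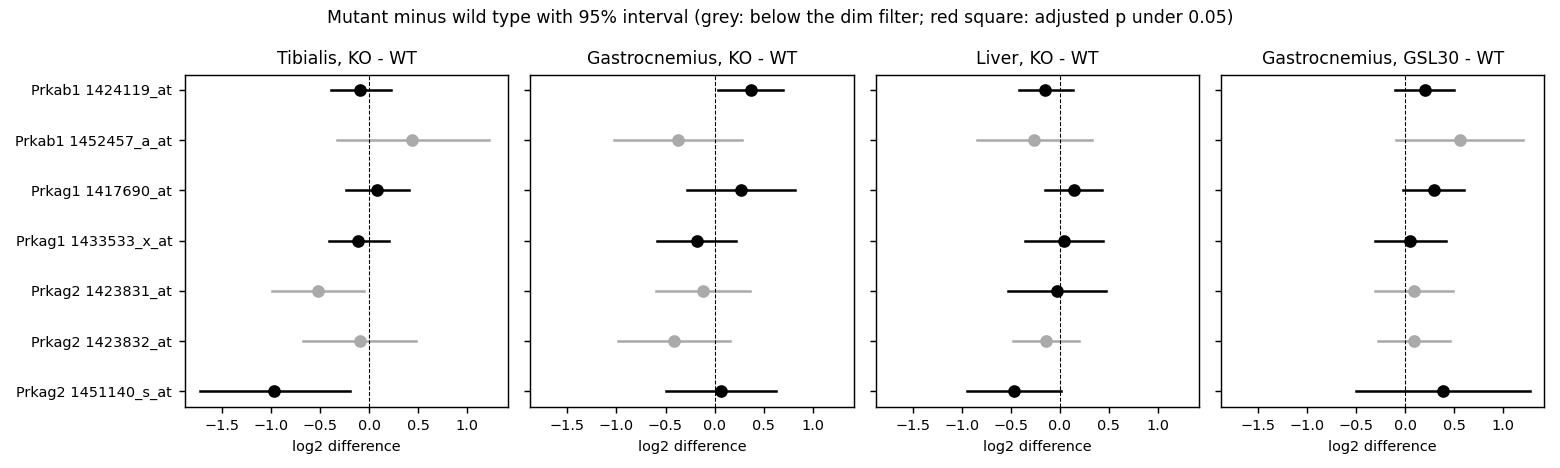
Log2 difference (mutant minus wild type, log2(value + 50) scale) with its 95% interval for each AMPK subunit probe set, in knockout tibialis, knockout gastrocnemius, knockout liver and GSL30 gastrocnemius (black, tested; grey, below the dim filter). No probe set is drawn as called, and the widest tested difference is Prkag2 1451140_s_at in tibialis at -0.97.

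Between muscle and liver, 1 of 16 tests of AMPK probe sets above the dim filter passed with the arrays scaled as deposited. In wild-type tibialis against wild-type liver 69.4% of tested probe sets were called in limma and 0 of 4 tested AMPK probe sets, with 0 at unadjusted p under 0.05 (71.9% of all). The counts were 1 of 4 in wild-type gastrocnemius (62.9% of all), 0 of 4 in knockout tibialis (68.5%) and 0 of 4 in knockout gastrocnemius (60.2%). At unadjusted p under 0.05 there were 1, 0 and 1 in these 3 comparisons (66.4%, 70.7% and 64.1% of all). The 4 comparisons share groups in pairs and are not independent. Tissue also goes with the set number in the titles and with the starting RNA (about 5 µg for muscle and 10 µg for liver, per the labels), which cannot be told apart from it.

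The call was Prkab1 by 1424119_at, which read 562 to 801 in wild-type gastrocnemius and 887 to 1055 in wild-type liver without overlap. Of all tested probe sets 54.5% did not overlap and 26.9% were called lower in the muscle. Prkab1 stood at 0.71 times its liver level (-0.50, SE 0.12, 95% interval -0.78 to -0.23, adjusted p = 0.00481 in limma, n = 5 and 4). It passed in every alternative run, at adjusted p of 1.67e-04 to 0.0176, and stood at -0.68 (adjusted p = 0.00168) without the gastrocnemius arrays of high liver percent. In wild-type tibialis, where the liver percent was at most 1.1, the difference was -0.22 (95% interval -0.52 to 0.07, adjusted p = 0.153). In knockout mice it was -0.17 in tibialis (95% interval -0.46 to 0.13, adjusted p = 0.293) and 0.01 in gastrocnemius (95% interval -0.32 to 0.35, adjusted p = 0.942).

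The scaling of the arrays bears on these values. The median of all tested probe sets stood 0.18 higher in wild-type tibialis than in liver as deposited, 0.12 higher in wild-type gastrocnemius, and 0.19 and 0.11 higher in knockout tibialis and gastrocnemius. Relative to such a median, Prkab1 stood lower in muscle. With all arrays brought to 1 median it was called lower in tibialis than in liver in wild type (-0.40, adjusted p = 0.0191) and in knockout (-0.39, adjusted p = 0.0172), and with quantile normalization likewise (-0.36 and -0.35, adjusted p = 0.0261 and 0.0299, all in limma).

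The dimmer Prkab1 probe set read the opposite direction between the tissues. By 1452457_a_at wild-type liver gave 74.5, 171, 77.1 and 34.4 and knockout liver 51.3, 60.9, 79.5 and 48.2. Wild-type tibialis gave 88.3, 100.2, 155 and 104 and knockout tibialis 82.9, 348, 99.7 and 232. Gastrocnemius at 3 months spanned 136 to 334 for wild type, against 123 to 268 for knockout. Knockout liver lay below all knockout muscle arrays. Among all tested probe sets, which leave out this dim one, knockout liver did not overlap tibialis in 63.5% or gastrocnemius in 62.1%. In wild type the groups overlapped. The differences from liver were 0.29, 1.09, 0.99 and 0.98 in wild-type tibialis, wild-type gastrocnemius, knockout tibialis and knockout gastrocnemius. With no dim filter they had adjusted p of 0.408, 0.0109, 0.0305 and 0.00983 in limma, beside 51.6%, 45.4%, 50.8% and 43.6% of all probe sets called. The a in its name marks probes shared by several transcripts of 1 gene. The 2 Prkab1 probe sets thus do not give 1 direction for the gene between muscle and liver, and the liver levels of the dimmer one are low.

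**Figure D3:**
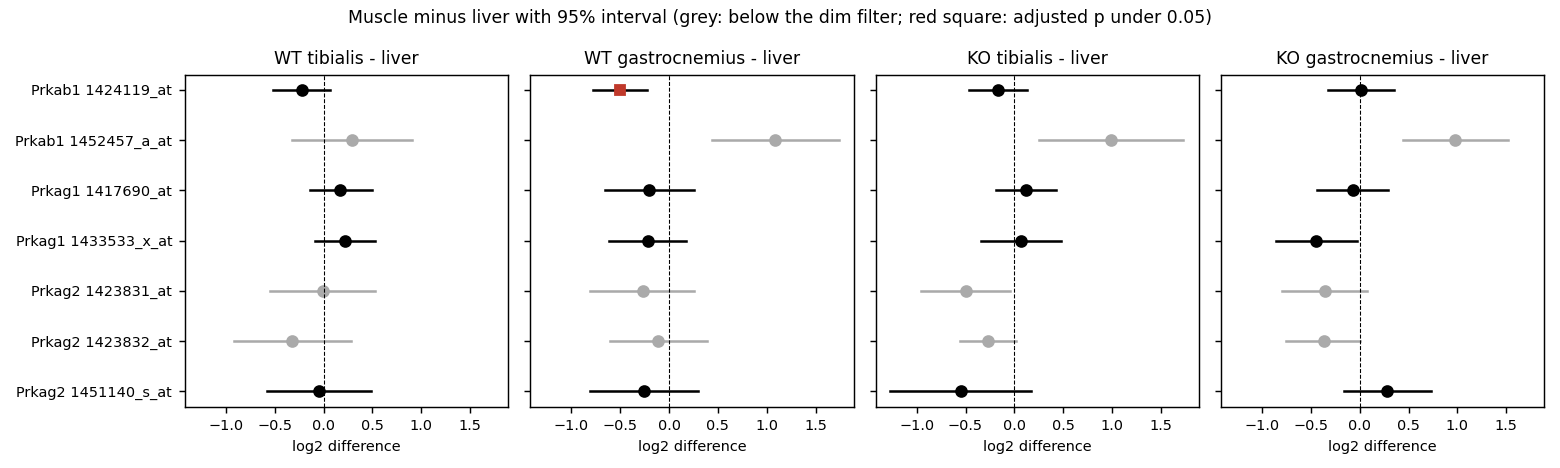
Log2 difference (muscle minus liver of the same genotype, log2(value + 50) scale) with its 95% interval for each AMPK subunit probe set at 3 months (black, tested; grey, below the dim filter; red square, called). Prkab1 1424119_at is called in wild-type gastrocnemius at -0.50, while Prkab1 1452457_a_at lies to the right of 0 in each panel.

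The 2 gamma subunits had no call among 12 tests between muscle and liver. Prkag1 by 1417690_at differed by 0.17 in wild-type tibialis (95% interval -0.14 to 0.49, adjusted p = 0.295 in limma), -0.20 in wild-type gastrocnemius (-0.66 to 0.26, adjusted p = 0.418), 0.12 in knockout tibialis and -0.07 in knockout gastrocnemius. With 1 common median the tibialis values turned to -0.01 and -0.11 and the wild-type gastrocnemius value was called (-0.53, adjusted p = 0.0295), as it was without the arrays of high liver percent (-0.44, adjusted p = 0.0298). Prkag1 by 1433533_x_at differed by 0.22, -0.22, 0.07 and -0.45 in the same order, with the last at an adjusted p of 0.064. Without knockout liver replicate 4, at 270 against 435 to 459 in the other three, that last value was -0.60 and called (adjusted p = 0.00591). Over the alternative runs, 1433533_x_at was called lower than liver in 5 of 16 in knockout gastrocnemius. In wild-type gastrocnemius it was called in 2 of 19 (adjusted p down to 0.0179 in limma). Prkag2 by 1451140_s_at differed by -0.05, -0.26, -0.55 and 0.28 (adjusted p of 0.156 to 0.859). Without knockout gastrocnemius replicate 1, at 275, the last was 0.50 and called (adjusted p = 0.0255). The dim Prkag2 probe sets 1423831_at and 1423832_at differed from liver by -0.01 and -0.32, -0.27 and -0.11, -0.50 and -0.27, and -0.36 and -0.37, and none of these passed without the dim filter (adjusted p of 0.0691 to 0.981). By 1423832_at knockout tibialis (77 to 104) lay just below knockout liver (105 to 147). These 2 groups did not overlap in 63.5% of the probe sets above the filter.

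The muscles were also set against each other. Tibialis and 3-month gastrocnemius carry different set numbers in their titles, so that muscle and set cannot be told apart. In wild-type gastrocnemius against wild-type tibialis at 3 months, 27% of tested probe sets were called in limma and 0 of 4 AMPK probe sets, with 1 at unadjusted p under 0.05 (39.9% of all). Prkag1 by 1433533_x_at read 237 to 427 in gastrocnemius and 424 to 474 in tibialis, where only replicate 2 of gastrocnemius reached the tibialis range (-0.44, 95% interval -0.79 to -0.09, adjusted p = 0.0617). By 1417690_at the difference was -0.38 (95% interval -0.86 to 0.11, adjusted p = 0.225). Without wild-type gastrocnemius replicate 2, the array that stood apart, both were called lower in gastrocnemius (-0.53 and -0.54, adjusted p = 0.0189 and 0.038). Prkab1 differed by -0.28 by 1424119_at (95% interval -0.60 to 0.04, adjusted p = 0.18 in limma). The dim 1452457_a_at went the other way, at 0.80 (95% interval 0.30 to 1.30, adjusted p = 0.0393 without the dim filter), with groups that overlapped. Prkag2 differed by -0.21, -0.26 and 0.22 by 1451140_s_at, 1423831_at and 1423832_at, and none passed. Slow fibre markers were higher in these gastrocnemius arrays (7 of 7 called, median 1.90), as were all 12 hepatocyte markers (median 6.76) and 4 of 4 tested adipocyte markers (median 1.19), and their part in the result was not tested.

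**Figure D4:**
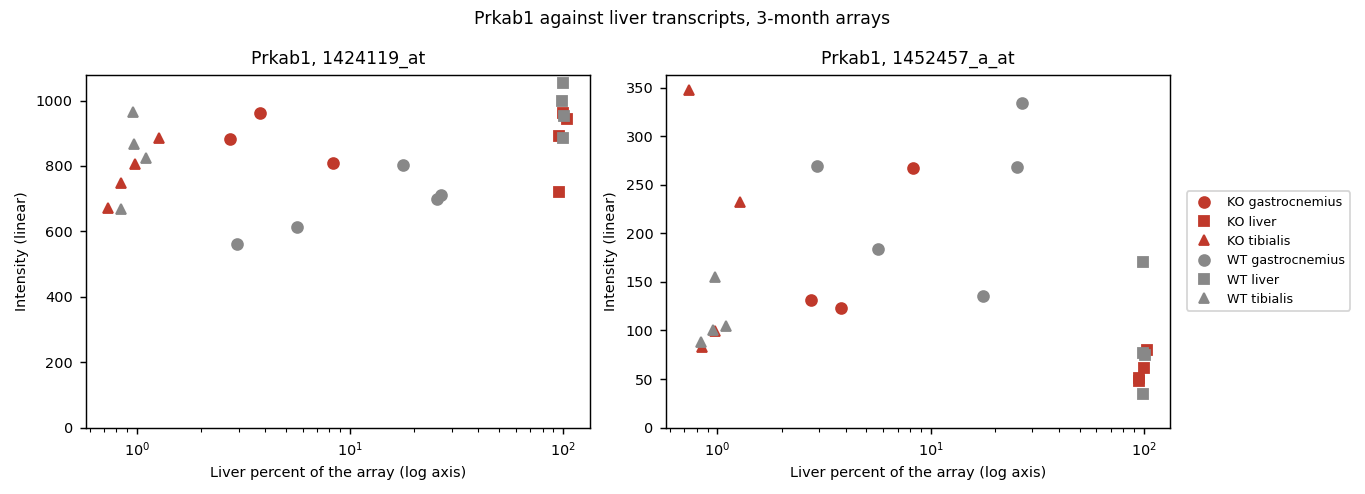
Intensity (linear scale) of the 2 Prkab1 probe sets in the 3-month arrays against the liver percent of each array (log axis; triangles tibialis, circles gastrocnemius, squares liver; grey wild type, red knockout). By 1424119_at the knockout gastrocnemius arrays sit at 810 to 962 and the wild-type ones at 562 to 801, and by 1452457_a_at the liver arrays sit at 34.4 to 171.

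Genes around AMPK were read from 5 lists. A list gene counted as called if any of its tested probe sets passed, while the shares of all beside it are per probe set. Gene counts can therefore run above those shares without more calls per probe set. Named values come from the probe set of smallest p unless stated. Medians and counts above 0, for lists and markers, come from the brightest probe set of each gene. Upstream kinases and regulators (LKB1 complex, CaM kinase kinases, sestrins, folliculin partners) had 16 genes, of which 11 had a probe set. In knockout tibialis 0 of 9 tested genes passed in limma, with Sesn3, a stress-induced sestrin, at -0.46 (adjusted p = 0.206) and Cab39, the LKB1 scaffold, at 0.23 (adjusted p = 0.322) nearest to passing. In knockout gastrocnemius 0 of 9 passed, with Map3k7, a kinase that can act on AMPK, at 0.53 (adjusted p = 0.222) and Cab39l at -0.60 (adjusted p = 0.415, and -0.03 by its brightest probe set). In knockout liver 0 of 11 passed, with Stk11, the kinase LKB1, at 0.26 (adjusted p = 0.571) and Sesn2 at 0.31 (adjusted p = 0.619). The list medians, by the brightest probe set of each gene, were -0.02, 0.15 and -0.02, beside 0.04, 0.05 and 0.02 for all tested probe sets.

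In GSL30 gastrocnemius 3 of 9 tested upstream genes were called, 2 higher and 1 lower, where 4.31% of all probe sets were. By 1 of 2 tested probe sets each, Map3k7 rose and Cab39 fell. Map3k7 went from 1024 ± 149 to 1613 ± 118 (0.64, SE 0.12, adjusted p = 0.017 in limma, n = 5 and 5). Strada, the pseudokinase partner of LKB1, rose from 536 ± 33.9 to 798 ± 84.2 (0.53, SE 0.11, adjusted p = 0.0201). Cab39 went from 4456 ± 634 to 3209 ± 178 (-0.46, SE 0.12, adjusted p = 0.0497), a call that ended whichever array was left out. The list median was -0.06, beside 0.03 for all tested probe sets. Other markers moved in the same arrays, with 7 of 7 slow fibre (median -0.97), 3 of 3 smooth muscle (median -0.93), 3 of 6 endothelial (median -0.60) and 2 of 5 adipocyte markers (median -0.63) called lower in GSL30, and their part in these calls was not tested.

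Targets of AMPK and genes it acts through made a list of 30, of which 24 had a probe set. In knockout tibialis 4 of the 19 tested genes passed, where 1.4% of all probe sets did. Gys1, the deleted gene, is among the 4 by design and says nothing on AMPK targets. Mlxipl, the glucose-responsive transcription factor ChREBP, rose from 2421 ± 151 to 4924 ± 543 (1.01, adjusted p = 0.00286 in limma, n = 4 and 4) and Hk2, a hexokinase, from 12077 ± 1041 to 17770 ± 1058 (0.56, adjusted p = 0.0408), a call that ended whichever array was left out. By 1 of its 2 tested probe sets Pfkfb3, an enzyme that raises flux through glycolysis, fell from 5939 ± 987 to 2199 ± 386 (-1.41, adjusted p = 0.00329). In knockout gastrocnemius Gys1, the deleted gene, alone passed of 20 tested. By their brightest probe sets 16 of 20 genes lay above 0 with a median of 0.30, beside 0.05 for all tested probe sets. In the same comparison hepatocyte markers had a median of -1.30 (0 of 12 above 0), adipocyte markers 0.47 and endothelial markers 0.41, slow fibre markers lay above 0 in 7 of 7, and their part in this shift was not tested. In knockout liver 0 of 20 passed, with Acacb, the mitochondrial acetyl-CoA carboxylase, at -1.22 (adjusted p = 0.43) and Tbc1d1, a regulator of glucose transporter traffic, at -0.29 (adjusted p = 0.566).

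In GSL30 gastrocnemius 3 of 19 tested targets passed, where 4.31% of all probe sets did and 7 of 7 slow fibre markers were called lower. Gys1, the overexpressed gene, is among the 3 by 1 of its 2 tested probe sets (0.53, adjusted p = 0.0247 in limma) and says nothing on AMPK targets. Whether this probe set reads the transgene was not tested. Tsc2, a brake on mTORC1 signalling, rose from 1884 ± 243 to 3492 ± 440 (0.87, SE 0.13, adjusted p = 0.00636 in limma, n = 5 and 5). Ppargc1a, the coactivator of mitochondrial genes, fell from 395 ± 116 to 188 ± 39.7 (-0.88, SE 0.18, adjusted p = 0.0197) by 1 of its 5 tested probe sets, and its brightest stood at -0.21. Without GSL30 replicate 2 the calls of Ppargc1a and of Map3k7 ended (adjusted p = 0.0576 and 0.0504).

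AMPK-related kinases, adenylate metabolism and other glycogen-binding proteins gave few calls. Of 14 related kinases 8 had a probe set, and none of 6, 6 and 7 tested passed in knockout tibialis, gastrocnemius and liver. Snrk, a kinase of this family, stood at 0.50 and 0.63 in knockout tibialis and gastrocnemius by different probe sets (adjusted p = 0.162 and 0.224 in limma). Mark2, a microtubule-affinity kinase, stood at 0.57 and -0.62 by its probe set of smallest p (adjusted p = 0.176 and 0.414) and at 0.07 and -0.09 by its brightest. In liver Mark1 and Mark2 stood at 0.25 and 0.24 (adjusted p = 0.644 and 0.683). In GSL30 gastrocnemius Snrk fell by 1 of 2 probe sets from 3837 ± 390 to 2485 ± 496 (-0.63, adjusted p = 0.0339, 1 of 6 tested), a call that ended in 8 of 10 fits with 1 array left out. The AMP-handling list of 20 genes had 15 with a probe set. Aprt and Ampd2 in knockout tibialis (-0.32 and -0.38, adjusted p = 0.29 and 0.337), Ak3 and Ak4 in gastrocnemius (-1.09 and -0.62, adjusted p = 0.265 and 0.407) and Adsl and Ak4 in liver (-0.33 and -0.24, adjusted p = 0.566 and 0.718) came nearest without passing. By their brightest probe sets Aprt stood at -0.07, Ak3 at -0.23 and Ak4 in liver at -0.31. Adk, which phosphorylates adenosine to AMP, fell by 1 of 2 probe sets in GSL30 gastrocnemius from 3290 ± 475 to 1801 ± 422 (-0.87, adjusted p = 0.0165, 1 of 12 tested), a call that ended without GSL30 replicate 2 (adjusted p = 0.0503).

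Of 12 other proteins that bind glycogen, 8 had a probe set. Gbe1, the branching enzyme, rose in knockout tibialis from 1400 ± 69.1 to 3163 ± 150 (1.15, adjusted p = 6.99e-04 in limma, 1 of 8 tested). It stood at 0.89 in knockout gastrocnemius (adjusted p = 0.133), beside 0.93 for Stbd1, a glycogen-binding adaptor of autophagy (adjusted p = 0.0758). In knockout liver Epm2a, the glycogen phosphatase laforin, and Pygl, the liver phosphorylase, stood at -0.31 and 0.23 (adjusted p = 0.576 and 0.718). Pygl fell in GSL30 gastrocnemius from 932 ± 218 to 463 ± 99.6 (-0.93, adjusted p = 0.0168, 1 of 8 tested), where 4 of 9 tested hepatocyte markers fell too (median -1.48) and the liver percent was 1.2 to 2.56 in wild type and 0.995 to 1.57 in GSL30. The part of liver transcripts in that fall was not tested.

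**Figure D5:**
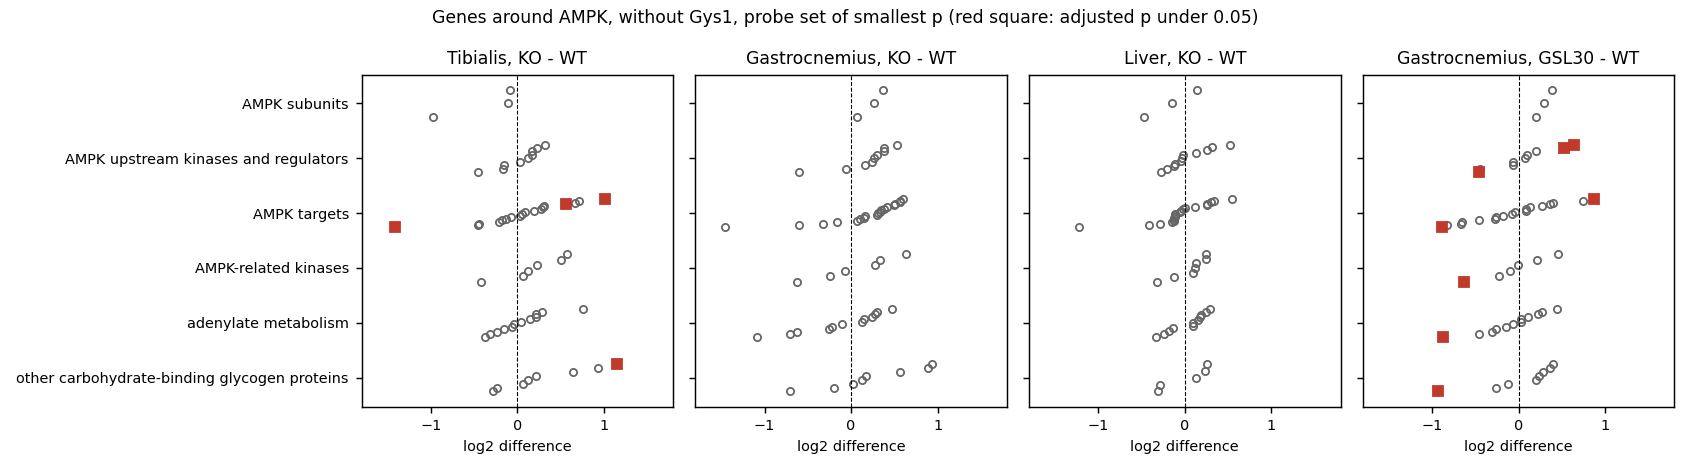
Log2 difference (mutant minus wild type, log2(value + 50) scale) of each tested gene of 6 lists, with 1 symbol per gene by its probe set of smallest p and Gys1 left out (open circles, not called; red squares, adjusted p under 0.05). The AMPK subunits hold no red square, and the called genes lie in knockout tibialis and GSL30 gastrocnemius.

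As a description of likeness, the genes whose log2 values followed each subunit most closely over the 34 arrays were listed by Pearson correlation, with points that share tissue and array scaling. For Prkab1 these were LTO1, Il1b and Bad (0.70, 0.70 and 0.68), with 0.75, 0.82 and 0.71 over the 26 muscle arrays. For Prkag1 they were Cox7a2l, Tmem132a and Chchd5 (0.70, 0.69 and 0.67, and 0.74, 0.72 and 0.76 in muscle), and for Prkag2 they were Tsr3, Hectd3 and Utp6 (0.62, 0.57 and 0.56, and 0.68, 0.62 and 0.54 in muscle).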

How the data were processed

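The deposited values are intensities of 22690 probe sets on 34 arrays, used as the authors deposited them, on a linear scale. Array means after 2% trimming at both ends were 1000.3 to 1000.5, a scaling seen in the values, with array medians between 296 and 440. The sources used here do not name the software that made the values. Gene symbols came from the supplied annotation (20393 probe sets with 1 symbol, 691 with several, 1606 with none).

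From these, log2(value + 50) was computed and fitted by lmFit and eBayes of limma (version 3.58.1, under R 4.3.3), each comparison on its own arrays, without 64 control probe sets and those under the 40th percentile of mean level. Values for members below that filter come from a fit without it. The code was tested on simulated data. Members, gene lists and tests were chosen with earlier results of these data known. Named genes were all member probe sets, called list genes (at most 6 per list and comparison, otherwise the 2 of smallest p) and the 3 likest genes per member. Marker lists (hepatocyte, skeletal muscle, slow fibre, adipocyte, endothelial, macrophage, smooth muscle) described the arrays. In the 4 mutant comparisons endothelial markers had medians of 0.48, 0.41, 0.03 and -0.60 (tibialis, gastrocnemius, liver, GSL30), macrophage markers 0.01, -0.16, 0.04 and -0.08, and smooth muscle markers 0.31, 0.39, 0.08 and -0.93. The number of arrays limits the precision. The planned balances of paired isoforms were not computed, because each needs a gene without a probe set here. No sequence is printed.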

Additional observations from a re-analysis of the deposited data

Results flagged for a closer look

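Single arrays stood apart in 2 of 49 tests, each of 1 probe set within 1 group of 4 or more arrays. Chance alone gives about 1 in 20 such tests, but these share arrays and are not independent. Knockout liver replicate 4 read 270 for Prkag1 by 1433533_x_at, against 435 to 459 in the other 3 arrays of its group. Wild-type liver replicate 2 read 257 for Prkag2 by 1451140_s_at, against 516 to 575 in the other three.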

How the results depend on the processing

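In the 4 mutant comparisons and 3 differences of effects, the count of AMPK calls was 0 under every alternative run (quantile normalization, 1 common median, pseudocounts of 1 and 200, no filter, a filter at the 60th percentile, 1 fit of 34 arrays, each array left out, array weights, eBayes with trend and robust settings, liver percent as covariate and arrays of high liver percent left out, the last 2 for gastrocnemius). Calls over all probe sets moved widely there, from 96 (no filter) to 335 (array weights) against 190 in tibialis, 1 (without arrays of high liver percent) to 306 (1 fit) against 20 in gastrocnemius, 1 to 41 (1 fit) against 1 in liver and 259 (no filter) to 1070 (1 fit) against 585 in GSL30. With an array left out they ran from 63 to 300, 7 to 25, 1 to 8 and 182 to 772.

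Between tissues the count of AMPK calls depended on the setting. It was 1 under quantile normalization and 1 under a common median in wild-type tibialis against liver (0 as reported). In wild-type gastrocnemius against liver (1 as reported) it was 2 with quantile normalization, 3 with a common median, 2 without filter and 2 without arrays of high liver percent. In knockout tibialis against liver (0 as reported) it was 1 with quantile normalization, a common median and no filter. In knockout gastrocnemius against liver (0 as reported) it was 1 with quantile normalization, a common median, no filter and 1 fit, 2 with array weights, and 0 to 1 with an array left out. In gastrocnemius against tibialis (0 as reported) it was 1 with quantile normalization, no filter and 1 fit, 2 with a common median and with array weights, and 0 to 2 with an array left out. Of list genes in GSL30, Cab39 also lost its call with quantile normalization, a common median, a pseudocount of 1, no filter and the covariate (adjusted p of 0.0509 to 0.0993 in limma). Snrk did with a common median and no filter. Gys1 did with both as well and in 5 of 10 fits with 1 array left out, and Hk2 in tibialis with both (adjusted p = 0.169 and 0.104). In knockout gastrocnemius Stbd1 and Gbe1 were called with 1 fit and with array weights, Stbd1 also with the 60th percentile filter and Snrk with 1 fit, and in knockout liver Acacb with 1 fit.

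Signs turned only for differences that were not called. With a common median these were Prkag1 1417690_at in knockout tibialis (-0.01), in tibialis against liver (-0.01 in wild type, -0.11 in knockout) and in GSL30 minus knockout (-0.09), Prkag1 1433533_x_at in knockout liver (-0.01), in knockout tibialis against liver (-0.14) and in gastrocnemius minus tibialis (0.07), and Prkab1 1424119_at in knockout gastrocnemius against liver (-0.19). Quantile normalization turned Prkag1 1433533_x_at (-0.01, -0.12 and 0.05 in those comparisons) and Prkab1 (-0.17). Array weights turned Prkag2 1423831_at in knockout liver (0.05), Prkab1 in knockout gastrocnemius against liver (-0.01), and in the differences of effects Prkag1 1433533_x_at (0.01) and 1417690_at (-0.18). A pseudocount of 1 turned Prkag2 1451140_s_at in liver minus muscles (0.03). Without arrays of high liver percent, Prkag2 1451140_s_at turned in knockout gastrocnemius (-0.03) and in liver minus muscles (0.03), and Prkag1 1417690_at in GSL30 minus knockout (-0.22). The covariate turned Prkag2 1451140_s_at in knockout gastrocnemius (-0.17) and in gastrocnemius against tibialis (0.19), Prkag1 1433533_x_at in GSL30 (-0.06) and 1417690_at in GSL30 minus knockout (-0.09). The cause was not tested.

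With an array left out, signs turned for Prkag2 1451140_s_at in knockout gastrocnemius (-0.06 to 0.29), wild-type tibialis against liver (-0.29 to 0.09) and liver minus muscles (-0.26 to 0.12), and for Prkag2 1423831_at in knockout liver (-0.25 to 0.10). They turned for Prkag1 1433533_x_at in knockout liver (-0.04 to 0.19), GSL30 (-0.04 to 0.17), knockout tibialis against liver (-0.08 to 0.17) and gastrocnemius minus tibialis (-0.17 to 0.02), for Prkag1 1417690_at in knockout gastrocnemius against liver (-0.18 to 0.03), liver minus muscles (-0.12 to 0.04) and GSL30 minus knockout (-0.14 to 0.13), and for Prkab1 1424119_at in knockout gastrocnemius against liver (-0.07 to 0.07).

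Mutant and wild-type groups of a comparison share no array number in the titles. Between tissues the numbers were tried as a replicate block. The same number can stand for wild type in tibialis and knockout in liver, so the numbers were not taken as animals. Deviations of same-numbered arrays correlated at -0.11 to 0.128, which cannot decide whether they share an animal, since tissues of an animal need not vary together. The block left the counts of AMPK calls as they were, with Prkab1 lower in wild-type gastrocnemius than in liver at -0.56 (adjusted p = 0.012 in limma). Under the block 3 signs turned, which were Prkag2 1451140_s_at in wild-type tibialis against liver (0.15), Prkag1 1417690_at in knockout tibialis against liver (-0.04) and Prkab1 1424119_at in knockout gastrocnemius against liver (-0.07). All 3 Prkag2 probe sets lay below the median level, as did Prkag1 1433533_x_at and Prkab1 1452457_a_at (percentiles 49 and 27.3). Whether low signal limits these readings was not tested.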
